A study of Mus musculus with 6 samples.

Results

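The circadian clock genes Arntl, Clock, Npas2, Cry1, Per1, Per2, Per3, Nr1d1, Nr1d2 and Dbp were followed through 6 mouse livers. They are 10 of the 52459 genes in the count table and were taken by symbol. All 10 were among the 17032 genes with enough counts to be tested. Bulk RNA-Seq had been done on whole livers of male C57BL6J mice of the Alb-Cre/Cas9 F1 generation, aged 8 months. In these mice the albumin promoter drives Cre, so Cas9 is made in hepatocytes, and other liver cells, like hepatocytes that took up no vector, are not edited. At 4 to 5 weeks of age each mouse received an AAV8-U6 vector with either sgCtrl, a control guide RNA, or sgPrdx2, a guide against the peroxidase gene Prdx2. The vector was followed 3 weeks later by diethylnitrosamine (DEN) at 100 mg/kg. From 1 week after DEN, every mouse ate CDA-HFD (a choline-deficient, amino acid-defined high-fat diet) for 6 months. Both groups therefore carry Cre, Cas9, the carcinogen and the diet, and no untreated liver was analysed here. There were 3 sgCtrl livers (mice 5.1, 7.1 and 7.2) and 3 sgPrdx2 livers (mice 1.1, 1.3 and 3.2), each from a separate mouse. The sgPrdx2 group rests on 1 guide sequence. The hour of collection and the last meal of each mouse are not given in the sources used here.

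The clock is a feedback loop of transcription. ARNTL (BMAL1), paired with CLOCK or NPAS2, binds E-boxes and switches on the Per and Cry genes, whose proteins return to the nucleus and silence it. The same pair switches on Nr1d1 and Nr1d2, which encode the repressors REV-ERBα and REV-ERBβ. These compete with ROR activators at ROR elements and so hold down Arntl, Clock and Npas2. DBP is an output factor that activates genes through D-boxes, Per genes among them. In the liver of mice kept on a light cycle, Arntl, Clock, Npas2 and Cry1 peak from late night to dawn, and are called night-phase genes here. Nr1d1, Dbp, Nr1d2, Per3, Per1 and Per2 peak from midday to dusk or shortly after it, and are called day-phase genes.

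Short promoter windows were searched, by exact letters, for elements of this kind. RefSeq promoter windows (GRCm38.p6, 250 bases before to 50 bases after a transcript start) were matched for 9 of the 10 genes, in 13 windows, with Per2 unmatched. Both strands were searched for the E-box CACGTG, the E'-box CACGTT, the ROR element (TAGGTCA or TGGGTCA), the D-box TTATGNAA and the cAMP response element TGACGTCA. Among all 32851 windows, 7.15% hold the E-box, 4.68% the E'-box, 6.45% the ROR element, 3.38% the D-box and 1.79% the cAMP response element. An E-box lies before Cry1 and Per1, an E'-box before Cry1 and Nr1d1, and a D-box before Per1 and Per3. A ROR element lies in an Arntl window, and no member window holds the cAMP response element. The windows of Clock, Npas2, Dbp and Nr1d2 hold no match of any kind, and letters outside the windows were not searched. The stretches below show 3 kinds of element (the E-box or E'-box, the ROR element and the D-box), with the matches in capitals. The 3 longer ones are the 250 bases just before the start. The Arntl stretch surrounds the ROR element, whose first base is base 31 of the transcript.
Arntl, ROR element, chr7:113207531-113207557, plus strand: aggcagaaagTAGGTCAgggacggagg
Cry1, E'-box then E-box, chr10:85185055-85185304, minus strand: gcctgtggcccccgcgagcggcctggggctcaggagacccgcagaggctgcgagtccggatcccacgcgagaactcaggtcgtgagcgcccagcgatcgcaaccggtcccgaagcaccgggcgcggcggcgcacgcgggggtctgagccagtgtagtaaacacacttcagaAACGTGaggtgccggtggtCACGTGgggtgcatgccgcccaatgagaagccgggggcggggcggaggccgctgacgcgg
Per1, E-box then D-box, chr11:69098699-69098948, plus strand: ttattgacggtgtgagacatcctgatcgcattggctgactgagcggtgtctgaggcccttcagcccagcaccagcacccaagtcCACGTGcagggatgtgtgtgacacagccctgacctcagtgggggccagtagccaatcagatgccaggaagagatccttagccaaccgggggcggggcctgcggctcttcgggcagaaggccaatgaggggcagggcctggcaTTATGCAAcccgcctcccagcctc
Per3, 2 D-boxes, chr4:151044666-151044915, minus strand: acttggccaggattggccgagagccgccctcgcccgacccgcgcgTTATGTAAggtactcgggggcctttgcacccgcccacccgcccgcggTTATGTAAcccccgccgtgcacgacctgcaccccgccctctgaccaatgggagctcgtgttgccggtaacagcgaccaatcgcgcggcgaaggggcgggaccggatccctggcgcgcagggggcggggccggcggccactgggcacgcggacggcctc
In Cry1 the E-box begins 60 bases before the start and the E'-box 79 bases before it, where it is read on the other strand. In Per1 the E-box begins 166 bases and the D-box 24 bases before the start. The D-boxes of Per3 begin 205 and 158 bases before the start. A match is a description of the letters, and no binding was measured.

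Total counts ran from 37462102 to 56865293 per liver. Expression is given as CPM (read counts relative to the library size, after TMM scaling, which sets the sizes so that most genes do not move). Prdx2 mRNA was 109, 117 and 132 CPM in sgCtrl livers 5.1, 7.1 and 7.2 and 99.0, 112 and 149 CPM in sgPrdx2 livers 1.1, 1.3 and 3.2, a log2 fold change of 0.01 ± 0.18 (SE). Base changes at a cut site need not lower an mRNA, and so Prdx2 mRNA does not check the labels. No pair of libraries was alike within sampling noise.

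The activators of the loop were low in 1 liver of each group. Arntl, the obligate partner in the activator pair, stood at 2.40, 13.0 and 11.3 CPM in sgCtrl livers 5.1, 7.1 and 7.2. In sgPrdx2 livers 1.1, 1.3 and 3.2 it stood at 4.56, 6.73 and 1.57 CPM. Livers 7.1 and 7.2 were the highest of the 6, and sgCtrl liver 5.1 lay below sgPrdx2 livers 1.1 and 1.3, so the groups overlapped. The lowest value rests on 51 reads (95% exact Poisson interval 38.0 to 67.1, counting error only), against 583 reads in liver 7.1. Between groups (sgPrdx2 over sgCtrl, n = 3 each) its log2 fold change was -1.04 ± 0.65 (SE), with an adjusted p of 0.354 (quasi-likelihood test of edgeR, Benjamini-Hochberg method over all genes tested).

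Npas2, which can replace CLOCK in the pair, was low in the same 2 livers. It was 0.959, 4.98 and 3.18 CPM in sgCtrl livers and 2.26, 3.12 and 1.20 CPM in sgPrdx2 livers, in the same mouse order. Livers 5.1 and 3.2 held 42 and 39 reads. Its log2 fold change was -0.46 ± 0.56 (adjusted p = 0.638).

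Clock itself moved less, at 16.4, 32.0 and 21.5 CPM in sgCtrl livers and 19.9, 21.4 and 13.6 CPM in sgPrdx2 livers. Its highest liver was 2.35-fold above its lowest, against 8.28-fold for Arntl and 5.19-fold for Npas2. The 2 lowest livers were once more 3.2 and 5.1. Between groups it was at -0.35 ± 0.27 on the log2 scale (adjusted p = 0.446).

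Among the repressors, the 3 Per genes shared a pattern that was set by the sgCtrl livers. Per1, an early responder that carries both an E-box and a D-box in the stretch shown above, was 72.4, 17.0 and 27.3 CPM in sgCtrl livers and 38.2, 54.3 and 39.3 CPM in sgPrdx2 livers. Per2, the Per gene most needed for rhythm, was 60.3, 16.7 and 17.1 CPM in sgCtrl livers and 30.6, 24.0 and 24.8 CPM in sgPrdx2 livers. Per3, a Per gene that the loop can run without, was 47.7, 15.4 and 15.6 CPM in sgCtrl livers and 41.9, 30.1 and 28.3 CPM in sgPrdx2 livers. For each of the 3, sgCtrl liver 5.1 was the highest of all 6 livers and liver 7.1 the lowest, and the 3 sgPrdx2 livers lay between 5.1 and the other sgCtrl livers. The sgCtrl livers thus spanned 4.26-fold for Per1, 3.60-fold for Per2 and 3.09-fold for Per3, while the sgPrdx2 livers spanned 1.42-fold, 1.28-fold and 1.48-fold. None of the 3 passed the test between groups (log2 fold changes of 0.18 ± 0.47, -0.24 ± 0.47 and 0.35 ± 0.43, adjusted p = 0.837, 0.772 and 0.638).

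Cry1, the cryptochrome repressor that peaks late in the night, did not follow the activators. It was 9.11, 5.87 and 4.89 CPM in sgCtrl livers and 5.22, 4.12 and 5.87 CPM in sgPrdx2 livers. Liver 5.1, among the lowest for Arntl, was the highest for Cry1. Its log2 fold change was -0.39 ± 0.26 (adjusted p = 0.386).

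The repressors of Arntl differed from each other. Nr1d1 was 91.0, 173 and 125 CPM in sgCtrl livers and 241, 208 and 169 CPM in sgPrdx2 livers. The groups overlapped at livers 7.1 and 3.2, and the mean was 130 ± 41.4 CPM (SD, n = 3) against 206 ± 35.8 CPM. The log2 fold change was 0.67 ± 0.25, with an unadjusted p of 0.0275 and an adjusted p of 0.153 by edgeR.

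Nr1d2 was the flattest of the 10, at 75.5, 62.9 and 58.4 CPM in sgCtrl livers and 74.5, 77.6 and 59.1 CPM in sgPrdx2 livers. Its highest liver was 1.33-fold above its lowest. Between groups it was at 0.10 ± 0.16 on the log2 scale (adjusted p = 0.719).

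Dbp, the output factor, was the 1 member whose groups did not overlap. It was 174, 87.3 and 95.8 CPM in sgCtrl livers and 255, 192 and 392 CPM in sgPrdx2 livers, with means of 119 ± 47.6 and 280 ± 102 CPM (SD, n = 3). Every sgPrdx2 liver was above every sgCtrl liver, but the gap between 5.1 and 1.3 was small beside the spread within either group. Over all genes, 34.2% had groups that did not overlap, so 1 of 10 was below the background. The log2 fold change was 1.23 ± 0.34 (unadjusted p = 0.00662). The adjusted p was 0.0820 by edgeR, 0.00318 by DESeq2 and 0.0237 by edgeR without a filter on low counts, and it ran from 0.00318 to 0.220 over all alternatives.

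**Figure D1:**
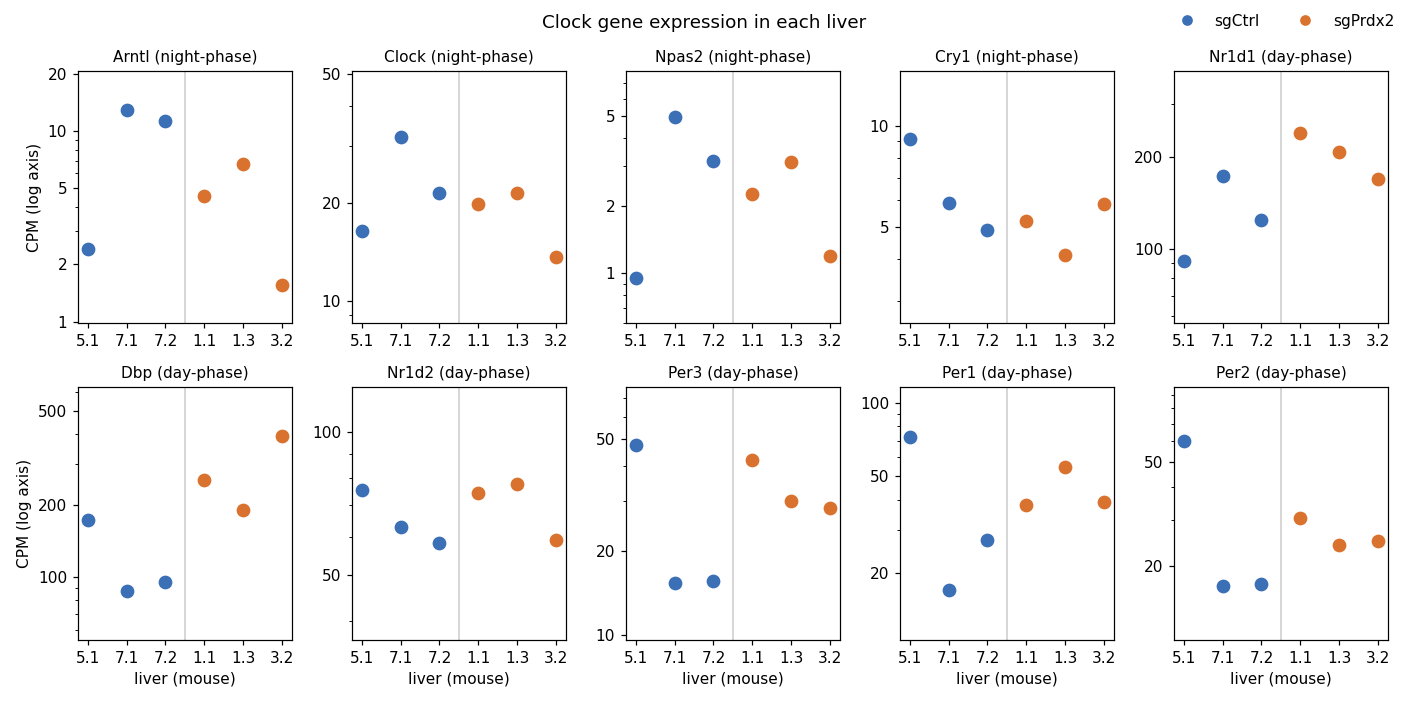
CPM of each clock gene (log axis) in each of the 6 livers, 1 point per liver, with the 3 sgCtrl livers left of the line and the 3 sgPrdx2 livers right of it. Liver 5.1 parts from livers 7.1 and 7.2 in most panels, low for Arntl (2.40 CPM) and high for Per2 (60.3 CPM), while Dbp alone has no overlap between groups.

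Taken over the 10 genes, edgeR called 0 between the groups at an adjusted p under 0.05, where it called 3.33% of all genes. At an unadjusted p under 0.05 there were 2 of 10 (Dbp and Nr1d1, both higher in sgPrdx2), against 24.9% of all genes. DESeq2 called 1 of 10 (Dbp), against 13.8% of all genes. The 4 night-phase genes all had negative fold changes, with a median log2 value of -0.42, and 5 of the 6 day-phase genes had positive ones, with a median of 0.26 (2 of the 6 with library totals in place of TMM, which put the median of all genes at -0.39). Over all 17032 genes tested, 8802 had negative and 8230 positive fold changes, with a median of -0.02. The shares of members called, under an unadjusted p of 0.05 or without overlap were each below the share over all genes.

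The levels per length of transcript separate the genes more widely than the guides do. In RPKM (CPM per kilobase of merged exons), Dbp ran from 29.2 to 131 and Nr1d1 from 29.6 to 78.2 over the 6 livers. Nr1d2 ran from 10.8 to 14.3. Arntl ran from 0.208 to 1.72 and Npas2 from 0.200 to 1.04, and their means were the lowest 2 of the 10 in both groups. The ranges of Dbp and Nr1d1 overlapped, as did those of Arntl and Npas2, but neither of the former met either of the latter.

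Some exons lie where reads can belong to another gene. In the GENCODE M21 annotation (GRCm38), 18.0% of the exon bases of Dbp (chr7:45705088-45710203, plus strand) are shared with Sphk2 on the opposite strand, and 8.55% of those of Nr1d1 (chr11:98767932-98775333, minus strand) with Thra. Whether the counting used strand is not given in the sources used here. Sphk2 was 42.2, 75.3 and 66.6 CPM in sgCtrl livers and 73.3, 76.3 and 66.2 CPM in sgPrdx2 livers, and Thra stayed within 21.0 to 27.1 CPM. In Nr1d2, 5.13% of 50-base stretches of its transcripts also occur in AC170187.1, so that its counts are uncertain to that extent.

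The spread among control livers was wide for clock genes. The log2 range over the 3 sgCtrl livers had a median of 1.31 over the 10 members and of 0.342 over all genes. It was over 1, a doubling, in 5 of 10 members and in 9.66% of all genes. Arntl, with a range of 2.41, lay at percentile 99.1 of all genes, Npas2 at 99.0, Per1 at 98.6, Per2 at 98.0 and Per3 at 97.1. Nr1d2, at percentile 54.1, was the exception. In the sgPrdx2 livers the median range was 0.536 over the members and 0.478 over all genes. Only Arntl (percentile 98.5), Npas2 (94.6) and Dbp (88.3) had a range over 1 there, against 12.5% of all genes.

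One sgCtrl liver was set apart in most members. In each group and gene, the liver farthest from the other 2 was found. Among sgCtrl livers it was 5.1 in 8 of 10 members, against 35.5% of all genes. Among sgPrdx2 livers it was 3.2 in 6 of 10 members, but 3.2 was also the farthest in 65.1% of all genes. By this count, liver 3.2 stood apart over the whole transcriptome, while liver 5.1 was near liver 7.1 (35.3% of all genes).

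**Figure D2:**
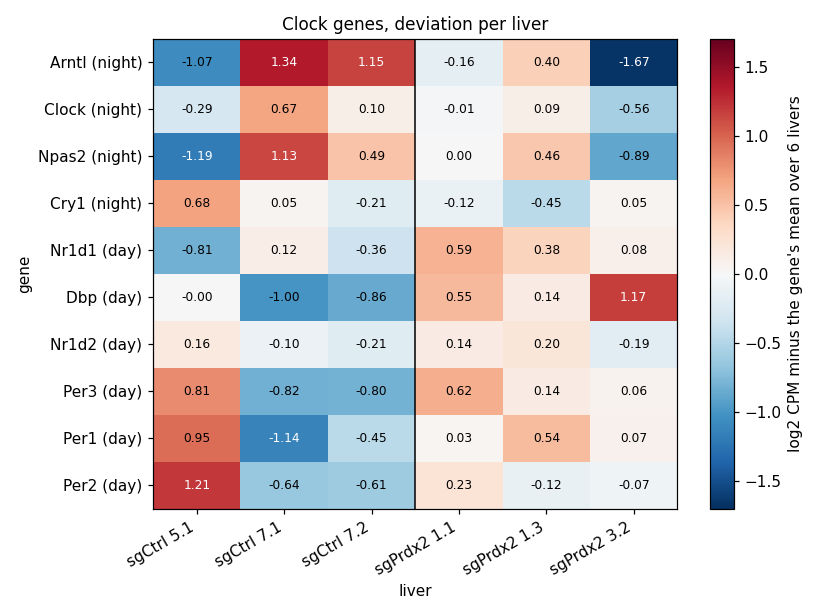
Log2 CPM of each clock gene minus the gene's mean over the 6 livers (red above it, blue below), with night-phase genes in the upper 4 rows and day-phase genes in the lower 6. Livers 7.1 and 7.2 are red for the activators and blue for the Per genes, and liver 5.1 has the opposite colours there. Among its other day-phase genes, Nr1d1 is below the mean (-0.81) and Dbp is at it.

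Each liver was then placed by the mean deviation of its night-phase genes minus that of its day-phase genes, on the log2 scale. A factor that scales a whole library cancels in this contrast. It was -0.85, 1.39 and 0.93 in sgCtrl livers 5.1, 7.1 and 7.2, and -0.43, -0.09 and -0.95 in sgPrdx2 livers 1.1, 1.3 and 3.2. From the night end to the day end the order was 7.1, 7.2, 1.3, 1.1, 5.1 and 3.2. Livers 7.1 and 7.2 were the 2 with a positive contrast, and liver 5.1 sat between sgPrdx2 livers 1.1 and 3.2. The group means were 0.491 ± 1.19 in sgCtrl and -0.491 ± 0.436 in sgPrdx2 (SD, n = 3), so the difference of -0.98 was smaller than the SD of the sgCtrl livers. Leaving out a liver moved it from -1.65 (without 5.1) to -0.53 (without 7.1).

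**Figure D3:**
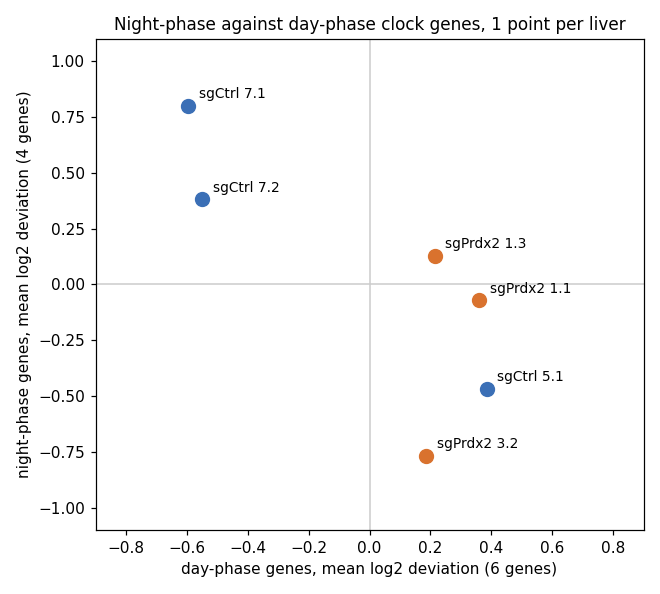
Mean log2 deviation of the 4 night-phase genes (vertical axis) against that of the 6 day-phase genes (horizontal axis), 1 point per liver. Livers 7.1 and 7.2 lie at the upper left, and sgCtrl liver 5.1 lies at the lower right beside sgPrdx2 liver 3.2.

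The ratio of Dbp to Arntl reads within a library needs no scaling at all. It was 72.4, 6.73 and 8.47 in sgCtrl livers 5.1, 7.1 and 7.2, and 55.9, 28.6 and 250.3 in sgPrdx2 livers 1.1, 1.3 and 3.2. It ranked the 6 livers in the same order as the contrast, with 5.1 between 1.1 and 3.2. Both genes are also part of the contrast, so the shared order is not separate support for it. A different ratio put 5.1 on its own. Reads of Per2 per read of Nr1d1 were 0.662 in liver 5.1 and lay between 0.0965 and 0.147 in the other 5 livers. Liver 5.1 was thus not a copy of any sgPrdx2 liver, since it combined the lowest Nr1d1 with the highest Per1, Per2, Per3 and Cry1 of the 6.

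Distances between livers were then compared with those over the whole transcriptome. Over the 15 pairs of livers, the root mean square difference in log2 CPM over the 10 members was smallest for 1.1 and 1.3 (0.384) and for 7.1 and 7.2 (0.396), each within 1 group. The largest distance was between sgCtrl livers 5.1 and 7.1 (1.58), which ranked only 6th of 15 over all genes (0.536). Livers 7.1 and 7.2 were the closest sgCtrl pair over all genes (0.475). Liver 5.1 was there the sgCtrl liver farthest from each of sgPrdx2 livers 1.1, 1.3 and 3.2 (0.685, 0.630 and 0.816). Livers 5.1 and 3.2, of opposite groups, were the 5th closest pair in clock genes (0.788) and the most distant pair over all genes (0.816). Mice 7.1 and 7.2 share a first number in their labels, as do 1.1 and 1.3. What that number stands for is not given in the sources used here. No first number occurs in both groups, so whatever it stands for cannot be told apart from the guide.

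Because liver 5.1 weighed so heavily in these same 10 genes, the group comparison was repeated without it. The liver left out was thus chosen from the values being compared. The shares of members and of all genes are therefore not a fair contrast here, and are given as a description. The groups then did not overlap in 7 of 10 members, against 42.1% of all genes with the same 5 livers. Arntl, Clock and Npas2 were lower in sgPrdx2 livers in this comparison, with log2 fold changes of -1.49 ± 0.49, -0.55 ± 0.25 and -0.88 ± 0.40. Dbp, Per3, Per1 and Per2 were higher, at 1.61 ± 0.31, 1.11 ± 0.21, 0.99 ± 0.26 and 0.65 ± 0.16, and Per2 changed sign. Nr1d1 (0.47 ± 0.22), Nr1d2 (0.22 ± 0.17) and Cry1 (-0.09 ± 0.22) still overlapped. Unadjusted p-values were under 0.05 in 5 of 10 members and in 17.9% of all genes. No member was called, with adjusted p from 0.118 to 0.850, and 0 of all genes were called by edgeR with these 5 livers. Leaving out any other single liver left 1 to 3 members without overlap.

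**Figure D4:**
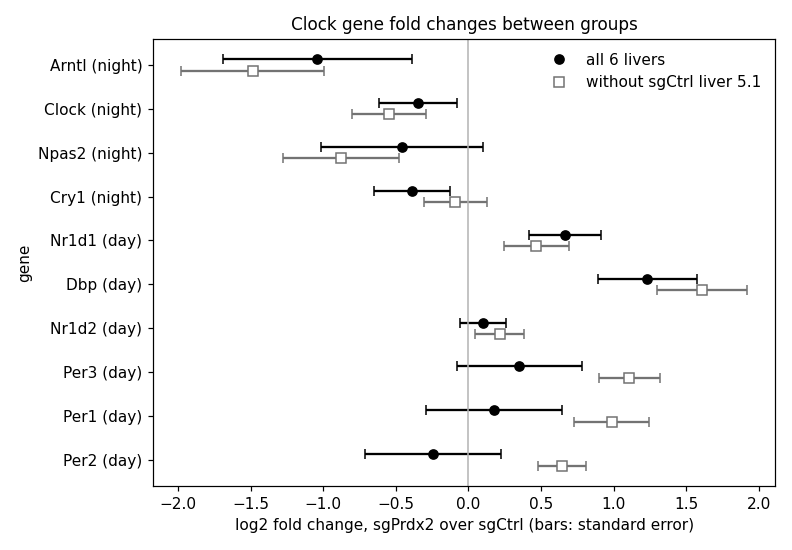
Log2 fold change of sgPrdx2 over sgCtrl livers for each clock gene, with its standard error, from all 6 livers (filled circles) and without sgCtrl liver 5.1 (open squares). Per2 goes from -0.24 to 0.65 and Per3 from 0.35 to 1.11 when liver 5.1 is left out, while Dbp (1.23 and 1.61) is positive in both.

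Other genes of the loop were read in the same livers. Of 11 further loop genes, 0 were called by edgeR or DESeq2 (3.33% and 13.8% of all genes), 1 had an unadjusted p under 0.05 (24.9% of all genes) and the median log2 fold change was 0.20. Cry2, the second cryptochrome, was 39.9, 34.3 and 29.7 CPM in sgCtrl livers and 56.9, 44.9 and 43.6 CPM in sgPrdx2 livers, without overlap (0.49 ± 0.16, adjusted p = 0.124). Tef and Hlf, which bind D-boxes as DBP does, had values of 0.53 ± 0.28 and 0.54 ± 0.31 (adjusted p = 0.288 and 0.311). In both, liver 5.1 lay inside the sgPrdx2 range, Tef at 147 CPM against 78.0 and 70.1 in the other sgCtrl livers. Arntl2, a paralog of Arntl, was at -0.41 ± 0.21 (adjusted p = 0.272).

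Ciart and Nfil3 were singled out after their values were seen. Ciart encodes a repressor of the CLOCK and ARNTL pair. It was 17.6, 1.80 and 2.76 CPM in sgCtrl livers and 13.3, 8.43 and 19.0 CPM in sgPrdx2 livers. Its promoter window holds 3 E-boxes, beginning 116, 58 and 44 bases before the start. Nfil3, which opposes DBP at D-boxes, ran the other way, at 6.42, 15.1 and 19.9 CPM in sgCtrl livers and 11.8, 11.4 and 8.35 CPM in sgPrdx2 livers. In both genes liver 5.1 was on the far side of the sgPrdx2 livers 1.1 and 1.3 from livers 7.1 and 7.2.

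Kinases and ubiquitin ligases that set the life of PER and CRY proteins were read next. Of 9, 0 were called by edgeR and 1 by DESeq2 (Csnk1e), against 3.33% and 13.8% of all genes. An unadjusted p under 0.05 was found in 4 (24.9% of all genes), and groups did not overlap in 6 (34.2% of all genes). Csnk1e, a kinase that marks PER proteins for decay, was 35.2, 30.3 and 32.6 CPM in sgCtrl livers and 22.8, 25.2 and 18.2 CPM in sgPrdx2 livers (log2 fold change -0.57 ± 0.15, adjusted p = 0.0727). Liver 5.1 was not low there but the highest. Prkaa1, a catalytic subunit of AMP kinase, was at -0.39 ± 0.14 (adjusted p = 0.147). The ligase genes Btrc and Fbxl21 were at 0.31 ± 0.11 and 0.62 ± 0.26 (adjusted p = 0.150 and 0.194). Liver 5.1 was the farthest sgCtrl liver in 1 of these 9 genes and in 7 of the 11 loop genes, against 35.5% of all genes. Liver 3.2 was the farthest sgPrdx2 liver in 8 of the 9 and in 5 of the 11, against 65.1% of all genes.

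Of 13 liver genes known as clock outputs, edgeR called 1, Cdkn1a, and DESeq2 called 2 (3.33% and 13.8% of all genes). Cdkn1a, the cell cycle inhibitor p21, fell in sgPrdx2 livers, from 30.6, 41.5 and 38.7 CPM to 18.2, 19.9 and 14.4 CPM (log2 fold change -1.08 ± 0.17, adjusted p = 0.0358, and 0.115 without liver 5.1). Lpin1, a phosphatidate phosphatase, and Nr1i3, the nuclear receptor CAR, were at 0.27 ± 0.14 and 0.80 ± 0.44 (adjusted p = 0.260 and 0.294).

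Several other output genes joined liver 5.1 with liver 3.2, and they were chosen after their values were seen. Usp2, a ubiquitin protease under clock control, was 49.1 CPM in both of these livers, 6.03 and 9.30 CPM in 7.1 and 7.2, and 27.3 and 15.2 CPM in 1.1 and 1.3. Por, the electron donor of cytochromes P450, was 489 and 475 CPM in livers 5.1 and 3.2 and between 193 and 306 CPM in the other 4. Alas1, which starts haem synthesis, was 771 and 1216 CPM in livers 5.1 and 3.2, with 225 to 364 CPM elsewhere. Other outputs, also chosen after their values were seen, parted these 2 livers. Elovl3 was lowest of the 6 in liver 5.1 (0.708 CPM) and highest in liver 3.2 (5.84 CPM). Nampt was highest in liver 5.1 (107 CPM) and lowest in liver 3.2 (59.1 CPM). Liver 5.1 was the farthest sgCtrl liver in 10 of the 13 outputs (35.5% of all genes), and liver 3.2 the farthest sgPrdx2 liver in 10, which is near its share of 65.1% over all genes.

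**Figure D5:**
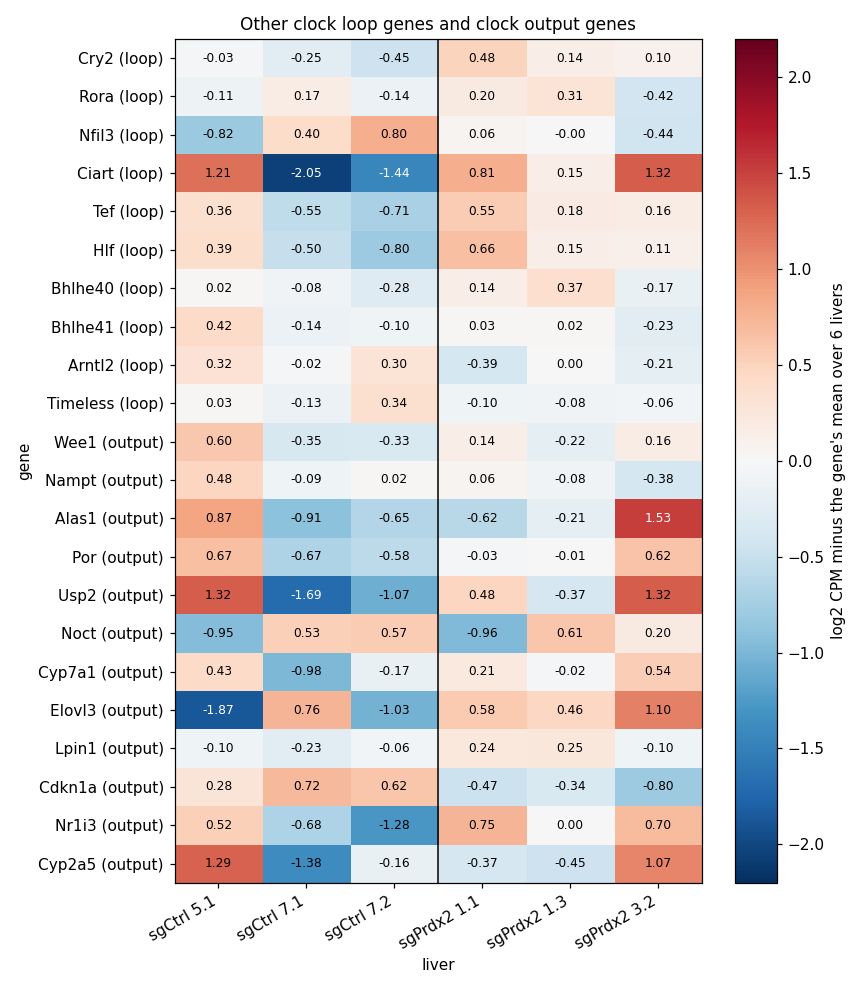
Log2 CPM minus the gene's mean over the 6 livers for further loop genes and clock output genes. Ciart and Usp2 are lowest in sgCtrl livers 7.1 and 7.2 (1.80 and 2.76 CPM for Ciart) and high in sgCtrl liver 5.1 and sgPrdx2 liver 3.2, and Nfil3 shows the opposite.

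Levels of cell type markers differed between the groups, and these are values beside the group comparison. In bulk liver, fewer cells of a type and less RNA per cell cannot be told apart. The shares over all genes are 3.33% called by edgeR, 13.8% called by DESeq2 and 24.9% at an unadjusted p under 0.05. All 8 hepatocyte markers had a positive fold change (7 of 8 with library totals). Of these, 5 were called by edgeR, 7 by DESeq2 and 7 had an unadjusted p under 0.05. The 5 were Ttr, Cyp2e1, Apoa2, Apoa1 and Alb, at log2 fold changes of 0.96 to 1.35. The summed level of all 8 was 79746 to 86042 CPM in sgCtrl livers and 137575 to 187978 CPM in sgPrdx2 livers. All 8 macrophage markers had a negative fold change, with 1 called by edgeR (Mpeg1, log2 fold change -0.82), 3 by DESeq2 and 4 at an unadjusted p under 0.05. Their sums were 1686 to 2195 against 1249 to 1587 CPM. The 6 lymphocyte and leukocyte markers had negative values, with 1 called by edgeR (Cd8a, -0.84), 2 by DESeq2 and 2 at an unadjusted p under 0.05. Their sums were 80.6 to 92.7 against 41.1 to 60.8 CPM. Of 7 stellate cell and fibroblast markers 6 were negative and 0 called by edgeR, where 4 had an unadjusted p under 0.05 and DESeq2 called 3, with sums of 1226 to 1750 against 998 to 1051 CPM. Of 5 endothelial markers 4 were negative, with 1 called by edgeR (Pecam1, -0.77), 2 by DESeq2 and 2 at an unadjusted p under 0.05. Their sums were 184 to 212 against 138 to 209 CPM. The 4 cholangiocyte markers were negative with 0 called by edgeR or DESeq2, 1 at an unadjusted p under 0.05 and sums of 132 to 217 against 115 to 136 CPM. The 2 neutrophil markers with enough counts had 0 called by either tool, 0 at an unadjusted p under 0.05 and sums of 6.21 to 11.7 against 7.18 to 11.4 CPM. No defining marker of any list was at 0 in all livers. The part of tissue make-up in the group differences of the clock genes was not tested. The markers of liver 5.1 were read on their own after its clock values were seen. Its hepatocyte sum (79746 CPM) was next to those of livers 7.2 (80922 CPM) and 7.1 (86042 CPM), a sum carried by Alb. Single markers of some lists set it apart. It was the farthest sgCtrl liver in 6 of 8 hepatocyte, 5 of 7 stellate cell and fibroblast and 3 of 4 cholangiocyte markers. In the other lists it was the farthest in 3 of 8 macrophage, 1 of 6 lymphocyte and leukocyte, 1 of 5 endothelial and 2 of 2 neutrophil markers. The share over all genes was 35.5%. The urea cycle genes Ass1 (238 CPM, against 566 and 705 CPM in 7.1 and 7.2) and Cps1 (437 CPM, against 1080 and 1039 CPM) were low in it. Ttr, Apoa1, Apoa2 and Hnf4a were also lowest in liver 5.1 among sgCtrl livers, by smaller margins. Cyp2e1, of the same list, was instead highest in it (5308 CPM, against 5049 and 3922 CPM), and Alb lay between 7.1 and 7.2. The bile duct keratin Krt19 (94.2 CPM, against 32.3 and 38.4 CPM) and the myofibroblast actin Acta2 (41.1 CPM, against 19.1 and 21.9 CPM) were high in it. Krt7 and Epcam, of the same list as Krt19, were also highest in it among sgCtrl livers. Sox9, of that list too, was lowest in it (24.5 CPM, against 26.1 and 24.9 CPM). Des and Pdgfrb were also highest in liver 5.1 among sgCtrl livers. Col1a1, Col1a2, Col3a1 and Lrat, of the same list as Acta2, were instead lowest in it. The sum of that list was 1226 CPM in liver 5.1, against 1750 and 1576 CPM in 7.1 and 7.2. The part of these markers in its clock pattern was not tested.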

How the data were processed

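The authors deposited raw read counts per gene for each liver (whole numbers, not normalized). The submitters' processing notes name HISAT2, HTSeq, DESeq2 and GRCm38, with versions, annotation and strand setting not given in the sources used here. A deposited table of the authors' own group comparison (fold changes and p-values) was not used. Groups came from the sample labels. Genes were kept by filterByExpr (minimum count 10), TMM-scaled and tested with edgeR 4.0.16 in R 4.3.3 (glmQLFit, glmQLFTest, all 6 livers, no covariate, called at Benjamini-Hochberg adjusted p under 0.05). DESeq2 1.42.0 was an alternative. Standard errors are the log2 fold change over the square root of F. Deviations used log2 CPM with a prior count of 2. The biological coefficient of variation was 0.213, and the test was checked on simulated data.

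The clock genes, their phases, the gene lists and the alternatives were chosen with earlier results of these data known. Named were all 10 members, Prdx2, genes called in any list, and those with the smallest p (up to 4 in clock lists, up to 3 in lists of fasting, feeding, glucocorticoid and temperature genes). Others are said to be chosen after their values were seen. Values of some listed genes are not reported here, although they are counted. Lengths and overlaps came from GENCODE M21, and promoters from RefSeq. The 3 livers of a group are separate mice.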

Additional observations from a re-analysis of the deposited data

How the results depend on the processing

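The number of all genes called (567) rose to 3247 with library totals, 1128 without a filter on low counts and 2118 with DESeq2, and leaving out a liver gave 0 to 619. It was 0 without any 1 of sgCtrl 5.1, sgCtrl 7.2, sgPrdx2 1.1 or sgPrdx2 1.3. The number of clock genes called went from 0 to 1 (Dbp) without the filter and to 1 with DESeq2. It was 0 in every leave-one-out fit. Clock genes without overlap numbered 1 to 7 when a liver was left out, 7 without sgCtrl 5.1. With library totals, which moved the median of all genes to -0.39, the log2 fold changes of Nr1d2 (-0.26), Per3 (-0.031) and Per1 (-0.20) turned negative, all 3 above that median. Leaving out a liver took Npas2 from -0.88 to 0.089, Per1 from -0.18 to 0.99 and Per2 from -0.54 to 0.65. The cause was not tested. The night-phase minus day-phase difference (-0.98) ran from -1.12 to -0.68 over other gene choices and from -1.65 (without sgCtrl 5.1) to -0.53 (without sgCtrl 7.1). RLE and upper-quartile factors changed no sign and no call of a clock gene. No paired analysis was possible because the groups share no replicate number. With 3 livers per group and 39 to 51 reads of Npas2 and Arntl in liver 3.2, counting error is largest for these genes.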

Other observations

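Genes that respond to food, glucocorticoids or temperature, and are themselves rhythmic in liver, were read in the same livers. Of 8 fasting-induced genes, 0 were called by edgeR and 1 by DESeq2, and 3 had an unadjusted p under 0.05, where the shares over all genes are 3.33%, 13.8% and 24.9%. Pck1, the gatekeeper of gluconeogenesis, was 382, 665 and 784 CPM in sgCtrl livers 5.1, 7.1 and 7.2 and 1225, 2041 and 1066 CPM in sgPrdx2 livers 1.1, 1.3 and 3.2 (log2 fold change 1.24 ± 0.33, edgeR adjusted p = 0.0769). Pdk4, which restrains glucose oxidation, and Fgf21, a hormone of fasting and of amino acid shortage, lay on the other side, at -0.74 ± 0.27 and -1.32 ± 0.51 (adjusted p = 0.144 and 0.161). In the list of 8, 4 fold changes were positive and 4 negative. Of 4 feeding-induced genes, 0 were called by either tool and 1 had an unadjusted p under 0.05. Srebf1, the lipogenic transcription factor, was at 0.69 ± 0.26 and Pnpla3 at -0.31 ± 0.29 (adjusted p = 0.154 and 0.529).

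Of 4 glucocorticoid-induced genes, 0 were called by edgeR and 2 by DESeq2, with 2 at an unadjusted p under 0.05, beside the same shares over all genes. Zbtb16 was at -1.08 ± 0.29, the kinase Sgk1 at -0.76 ± 0.23 and the receptor chaperone Fkbp5 at -0.45 ± 0.24 (edgeR adjusted p = 0.0755, 0.106 and 0.288). Fkbp5 was highest in sgCtrl liver 5.1, at 69.4 CPM against 32.9 and 50.4 CPM in the other sgCtrl livers and 36.1, 37.9 and 37.6 CPM in sgPrdx2 livers. Of 7 temperature-dependent genes, 0 were called by edgeR and 3 by DESeq2, with 3 at an unadjusted p under 0.05, beside the same shares. The heat shock genes Hsph1 and Hsp90aa1 were at -0.60 ± 0.15 and -0.62 ± 0.17, and the cold-induced Cirbp at 0.46 ± 0.12 (edgeR adjusted p = 0.0625, 0.0772 and 0.0813). Groups did not overlap in these 3 of 7, against 34.2% of all genes. The other 6 genes of the list were all negative. Among them was Rbm3, also cold-induced and looked up after these values were seen (-0.30 ± 0.18, edgeR adjusted p = 0.339). The part of the genes of these lists in the differences of the clock genes was not tested.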
